A study of Mus musculus with 2 samples.

Results

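The Csf2 and Slc22a4 neighbourhood of mouse chromosome 11 holds cytokine genes and transporter genes side by side, and 9 of its genes were followed here out of 34728 genes in the deposited tables: Csf2, Il3, Acsl6, P4ha2, Pdlim4, Slc22a4, Slc22a5, Rad50 and Kif3a. They were picked by symbol from the stretch of the GRCm38 build around the cytokine genes, with their values in these libraries already known, so every value below is a description. Messenger RNA had been sequenced from 1 library of peritoneal macrophages labelled Kdm2b-/- (knockout) and 1 library labelled wild type (KO and WT beside paired values, after their labels), both from C57BL/6 mice. Both sets of cells were collected 4 days after injection of thioglycollate, an irritant that recruits macrophages to the peritoneum, and both were given 100 ng/ml of lipopolysaccharide (LPS), the cell wall component that activates Toll-like receptor 4. The labels give the time in LPS as 4 h in one field and 3 h in another. No untreated cells were analysed here, and the labels do not say how the deletion was made, in which cells, or how many mice were pooled. With 1 library per group there was no spread between animals to set a difference against, so no test could be made.

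The stretch is the mouse counterpart of the human cytokine cluster that carries IL3, CSF2, IL5, IL13 and IL4. Granulocyte-macrophage colony-stimulating factor (GM-CSF, from Csf2) and interleukin-3 (from Il3) are small secreted growth factors of myeloid cells that share the beta common receptor chain, and activated macrophages can secrete the first. The neighbouring transporter genes Slc22a4 and Slc22a5 encode OCTN1 and OCTN2, membrane carriers of ergothioneine and of carnitine. KDM2B, the protein whose gene was targeted, binds unmethylated CpG dinucleotides through a zinc finger and brings a variant Polycomb complex to CpG-rich promoters.

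The library labelled knockout rested on an estimated 26800000 fragments and the wild-type library on 27300000. Kdm2b itself (chromosome 5, 122870665 to 122989823, GRCm38) was not lower in the first. It stood at 0.326 FPKM there, against 0.205 FPKM in wild type (about 45 and 29 fragments; counting interval of the log2 ratio -0.05 to 1.38), where FPKM is fragments scaled to transcript length and to the mapped total. The fragments of Kdm2b depend on the transcript length assumed. With the mean transcript length the interval ran from -0.52 to 1.80. With the length of all its exons joined (exon union) it ran from 0.18 to 1.15. A deleted exon need not be visible in a value over the whole gene, so directions below are those of the library labelled knockout. The 4 Y-linked genes Eif2s3y, Ddx3y, Kdm5d and Uty were detected there and listed at 0 in the wild-type library, and Xist, the RNA of the inactive X chromosome, stood at 0.00398 (KO) and 8.55 (WT) FPKM. The sex of the mice and the genotype therefore cannot be told apart. All 11 macrophage markers were detected, which matches the labelled cell type. Of these, 7 were higher in the library labelled knockout, beside 63.2% of the 9039 genes that averaged 1 FPKM or more. Among the 7 were Adgre1 at 56.9 (KO) and 44.3 (WT) FPKM and Lyz2 at 11409 (KO) and 8945 (WT) FPKM. The other 4 were lower there, among them Cd14 at 905 (KO) and 1136 (WT) FPKM. With 1 FPKM added to each value, 1 marker was at least 1.5-fold higher, Gata6 at 7.85 (KO) and 4.48 (WT) FPKM. Likewise 1 was at least 1.5-fold lower, Timd4 at 1.22 (KO) and 2.40 (WT) FPKM.

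Promoter sequences of the neighbourhood are shown first because KDM2B reads CpG content, and because the members that were lowest in the library labelled knockout, Csf2 and Slc22a4, had windows that differed in this respect. The sequences are RefSeq windows of GRCm38.p6 from 250 bases before to 50 bases after a transcript start, written 5′ to 3′ on the strand of the gene, with each CpG in capitals.
Csf2, chr11:54249850-54250149, minus strand: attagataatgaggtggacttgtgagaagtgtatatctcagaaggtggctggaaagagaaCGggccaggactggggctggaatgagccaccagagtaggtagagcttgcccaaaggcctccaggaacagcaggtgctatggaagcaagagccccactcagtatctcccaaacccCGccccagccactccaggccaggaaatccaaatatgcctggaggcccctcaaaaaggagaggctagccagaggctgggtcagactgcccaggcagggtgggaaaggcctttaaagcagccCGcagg
Slc22a4, chr11:54028055-54028354, minus strand: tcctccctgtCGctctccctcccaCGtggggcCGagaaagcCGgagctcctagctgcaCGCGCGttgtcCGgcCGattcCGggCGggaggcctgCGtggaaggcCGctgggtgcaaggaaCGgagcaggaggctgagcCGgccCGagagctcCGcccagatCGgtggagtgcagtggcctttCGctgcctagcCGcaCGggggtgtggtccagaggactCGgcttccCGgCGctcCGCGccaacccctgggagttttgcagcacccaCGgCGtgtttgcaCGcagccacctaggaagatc
Slc22a5, chr11:53891654-53891953, minus strand: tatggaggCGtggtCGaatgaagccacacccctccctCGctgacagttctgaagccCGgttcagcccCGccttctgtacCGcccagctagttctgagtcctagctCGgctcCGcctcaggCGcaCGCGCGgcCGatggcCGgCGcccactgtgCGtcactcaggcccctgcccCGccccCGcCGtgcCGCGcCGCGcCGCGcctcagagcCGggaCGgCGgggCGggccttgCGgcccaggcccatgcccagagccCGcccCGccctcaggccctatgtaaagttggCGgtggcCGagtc
Il3, chr11:54267230-54267529, minus strand: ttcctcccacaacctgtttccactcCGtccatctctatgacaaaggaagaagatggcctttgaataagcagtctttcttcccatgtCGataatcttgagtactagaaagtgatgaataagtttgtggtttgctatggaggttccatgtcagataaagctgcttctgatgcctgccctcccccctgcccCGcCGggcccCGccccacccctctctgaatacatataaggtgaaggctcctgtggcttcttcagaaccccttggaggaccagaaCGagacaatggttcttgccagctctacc

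The Csf2 window held 3 CpG dinucleotides, an observed over expected ratio of 0.126, which was at percentile 17.3 of 32851 windows in the table. The Slc22a4 window held 29, a ratio of 0.813 at percentile 80.2. That of its paralog Slc22a5 held 34, a ratio of 0.875, and that of Il3 held 6, a ratio of 0.321. The RefSeq start of Csf2 lies 232 bases upstream of the GENCODE start, so its window does not reach the bases next to the GENCODE start, and the P4ha2 window lies around a start 829 bases downstream of the GENCODE one. Of the other members, Pdlim4 (31 CpG, ratio 0.849), P4ha2 (26, 0.726) and Kif3a (18, 0.675) had CpG-rich windows, and the 3 windows of Acsl6 ran from a ratio of 0.0388 to 0.835. A window was found for 8 members and none for Rad50.

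**Figure D1:**
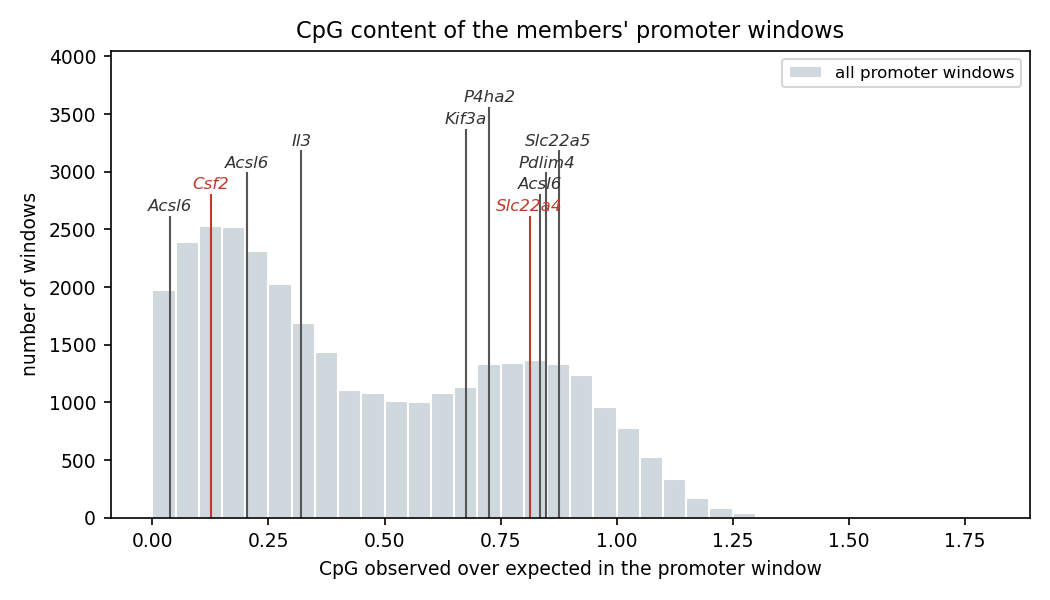
CpG observed over expected ratio (horizontal axis) of all 32851 promoter windows, as the number of windows per bin, with a line for each window of a member. Csf2 (0.126) sits in the CpG-poor peak and Slc22a4 (0.813) in the CpG-rich peak.

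Short motifs were searched on both strands of the same windows. The GC box GGGCGG was found in at least 1 window of all 8 members, and in 35.7% of all windows. No member window held the spelling of the kappaB site that was searched (1.47% of all windows) or the TATA letters TATAAA (13.6%). Other spellings of these sites were not searched. For Csf2 the bases next to the GENCODE start lie outside the window, so its lack of a match does not cover them. The AP-1 letters TGANTCA were in 1 Acsl6 window (7.81% of all windows), and CCAAT was in windows of Acsl6, Pdlim4 and Kif3a (37.4%). A match is a run of letters and was not tested as a binding site.

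Csf2, which encodes GM-CSF, had 6.34 FPKM in the library labelled knockout, against 40.1 FPKM in the wild-type library. It was the most abundant member in both. The gene (ENSMUSG00000018916) lies on the minus strand at 54247271 to 54249667 of chromosome 11 and has 1 annotated transcript of 800 bases, so the fragments behind it could be recovered: 136 in the library labelled knockout and 874 in the wild-type library. The level was 6.32-fold lower in the first, and the log2 ratio of FPKM was -2.66, with a 95% counting interval of -2.93 to -2.40 (exact Clopper-Pearson). This interval and those below cover counting error only. On the FPKM + 1 scale used to count genes the log2 ratio was -2.48, the 10th lowest of the 9039 genes whose mean reached 1 FPKM. Short transcripts were lower as a class in the library labelled knockout, with a median log2 ratio of -0.23 over the shortest 10% of genes (132 to 1200 bases); with the trend in length and GC content removed, Csf2 stood at -2.07. The antisense gene Gm12223, which overlaps Csf2 on the other strand, was listed at 0 in both libraries. In a bulk library, fewer cells that make a transcript and less of it per cell cannot be told apart.

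Il3, whose product supports early myeloid cells and mast cells and which T cells and mast cells are known to make, was listed at 0 in both libraries. It starts 17.6 kb upstream of Csf2 on the same strand (ENSMUSG00000018914, 54265303 to 54267277). A count of 0 allows up to 0.178 FPKM in the library labelled knockout and up to 0.175 FPKM in the wild-type one, taken as 3 fragments over its 629 bases. Both levels lay under those limits, so no difference between the libraries was detectable. The T helper type 2 cytokine genes Il4, Il5 and Il13 of the same stretch were likewise listed at 0 in both. Of the cluster's cytokine genes, Csf2 was therefore the 1 with a measurable level here.

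Slc22a4, the gene of the ergothioneine and organic cation carrier OCTN1, had 2.37 FPKM in the library labelled knockout, against 16.2 FPKM in the wild-type library. This was the second member that stood far apart, and it lies 222 kb from Csf2 (start to start) at 53983123 to 54028090 on the minus strand (ENSMUSG00000020334). The level was 6.83-fold lower in the library labelled knockout, from about 144 and 999 fragments, and the log2 ratio of FPKM was -2.77 with a counting interval of -3.03 to -2.52. On the FPKM + 1 scale it was -2.35, the 12th lowest of the 9039 genes, and -2.28 without the trend in length and GC. The fragments of this gene depend on the transcript length assumed: with the mean transcript length the interval ran from -3.15 to -2.42.

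Slc22a5, the carnitine carrier gene OCTN2 and the nearest relative of Slc22a4 among the members, did not go with it. It had 1.73 FPKM in the library labelled knockout, against 1.33 FPKM in the wild-type library, from some 142 and 111 fragments, and was thus slightly higher in the first (log2 ratio of FPKM 0.38, counting interval 0.01 to 0.75). With fragments taken from the mean transcript length the interval ran from -0.14 to 0.92 and held 0. Slc22a5 (ENSMUSG00000018900) lies at 53864542 to 53891660 on the minus strand. Its longest transcript is 80.2% identical to that of Slc22a4 over 1555 aligned bases and 93.2% identical to that of the third transporter gene of the row, Slc22a21, over 2953. Of all 50-base stretches of the Slc22a5 transcript, 27.1% also occur in another gene, which makes its value uncertain; for Slc22a4 this share was 2.98%. Slc22a21 itself stood at 0.144 (KO) and 0.0779 (WT) FPKM, from only some 13 and 7 fragments. Of its 50-base stretches, 24% also occur in Slc22a4 or Slc22a5.

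A copy of an Slc22a4 exon lies between these transporter genes, and it was also lower in the library labelled knockout. The unprocessed pseudogene Gm12220 was listed at 0 there and stood at 6.18 FPKM in the wild-type library, 29 fragments over its 172 bases. With 3 fragments in place of 0 and the 29 taken as they stand, its level was at least 9.50-fold lower in the first library; the counting interval of the log2 ratio, which also covers the error of the 29, ended at -2.86. The pseudogene is shown beside exon 4 of Slc22a4, with the bases that differ between them in capitals, since fragments from the one can be assigned to the other.
Gm12220, chr11:53929305-53929476, minus strand: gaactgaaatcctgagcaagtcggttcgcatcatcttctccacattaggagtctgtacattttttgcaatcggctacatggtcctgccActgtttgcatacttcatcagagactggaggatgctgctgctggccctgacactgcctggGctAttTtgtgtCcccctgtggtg
Slc22a4 exon 4, chr11:53997377-53997548, minus strand: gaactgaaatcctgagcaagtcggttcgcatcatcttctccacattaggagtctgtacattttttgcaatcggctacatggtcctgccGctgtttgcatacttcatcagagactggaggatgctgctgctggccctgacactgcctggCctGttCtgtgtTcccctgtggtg

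The sequences are identical at 167 of 172 bases (97.1%), with a longest identical run of 88 bases. The same stretch of Slc22a5 shares 137 of the 172 bases. Of the 50-base stretches of Gm12220, 40.7% occur in Slc22a4 or Slc22a5, so its value cannot be read apart from that of Slc22a4. With the fragments of both added together, the log2 ratio of Slc22a4 on the FPKM + 1 scale was -2.39, against -2.35 for Slc22a4 alone.

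**Figure D2:**
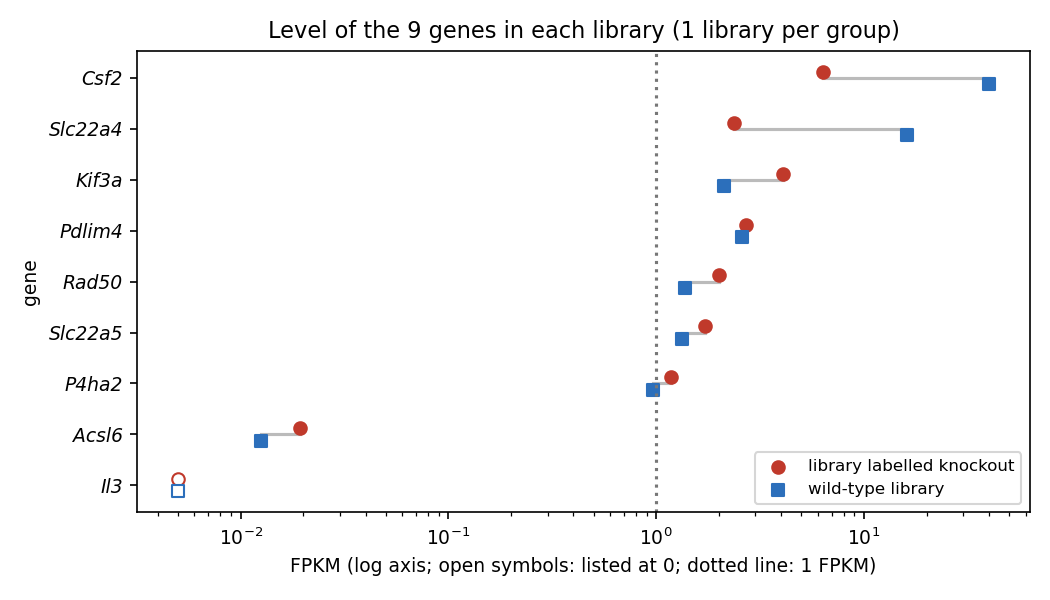
FPKM of each of the 9 genes (rows) in the library labelled knockout (circles) and the wild-type library (squares) on a log axis, with 1 library per group. Csf2 (KO 6.34 and WT 40.1 FPKM) and Slc22a4 (KO 2.37 and WT 16.2 FPKM) stand far apart between the libraries, Kif3a lies the other way (KO 4.08 and WT 2.11 FPKM), and Il3 is listed at 0 in both.

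The genes between Slc22a4 and Csf2 were close in both libraries. Pdlim4, which encodes a PDZ and LIM domain adaptor of the actin cytoskeleton, had 2.70 FPKM in the library labelled knockout, against 2.58 FPKM in the wild-type library. Its log2 ratio of FPKM was 0.07, with a counting interval of -0.35 to 0.49, and on the FPKM + 1 scale it changed sign with the scaling of the libraries (0.05 as deposited, -0.04 with the median of all genes set to 0). P4ha2, a catalytic subunit gene of the collagen prolyl 4-hydroxylase, had 1.18 FPKM in the library labelled knockout, against 0.971 FPKM in the wild-type library (a log2 ratio of FPKM of 0.28, interval -0.16 to 0.73). Both intervals held 0 and lay far from those of Csf2 and Slc22a4. Pdlim4 (ENSMUSG00000020388, 54054928 to 54069014, minus strand) and P4ha2 (ENSMUSG00000018906, 54100095 to 54131665, plus strand) start 181 and 150 kb from the Csf2 start.

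Acsl6, an acyl-CoA synthetase gene best known from the brain, was close to absent on the far side of Il3. It had 0.0192 FPKM in the library labelled knockout, against 0.0126 FPKM in the wild-type library, which is about 3 and 2 fragments. The counting interval of the log2 ratio ran from -2.52 to 4.19, so no difference was detectable at this depth. The gene (ENSMUSG00000020333) lies at 54303798 to 54364756 on the plus strand, and its antisense partner Gm12224 was listed at 0 in both libraries.

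Kif3a and Rad50, at the end of the stretch away from Csf2, were somewhat higher in the library labelled knockout. Kif3a, a motor subunit of kinesin-2 that carries cargo along microtubules and builds cilia, had 4.08 FPKM in the library labelled knockout, against 2.11 FPKM in the wild-type library, from some 346 and 182 fragments. The log2 ratio of FPKM was 0.95 (interval 0.69 to 1.22), and on the FPKM + 1 scale 0.71, which 213 of the 9039 genes exceeded. Rad50, a subunit of the MRN complex that binds and tethers broken DNA ends, had 2.00 FPKM in the library labelled knockout, against 1.37 FPKM in the wild-type library (a log2 ratio of FPKM of 0.54, interval 0.27 to 0.81). Kif3a (ENSMUSG00000018395, 53567379 to 53601967, plus strand) starts 682 kb and Rad50 (ENSMUSG00000020380, 53649519 to 53707319, minus strand) 542 kb from the Csf2 start. Both remained above 0 in every scaling, pseudocount and trend setting tried.

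Genes counted as higher or lower were those at least 2-fold apart on the FPKM + 1 scale with a mean over both libraries of 1 FPKM or more. Of the 9 members, 7 passed this floor and Il3 and Acsl6 did not. Csf2 and Slc22a4 were counted as lower and 0 members as higher; over all 9039 genes past the floor 1.02% were lower and 0.863% higher. At 1.5-fold the same 2 members were lower and 1, Kif3a, was higher, against 2.8% lower and 4.7% higher over all genes. Since the members were chosen on this comparison, nothing is read from these counts. The median log2 ratio of the 7 was 0.15, beside 0.10 for all genes past the floor.

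**Figure D3:**
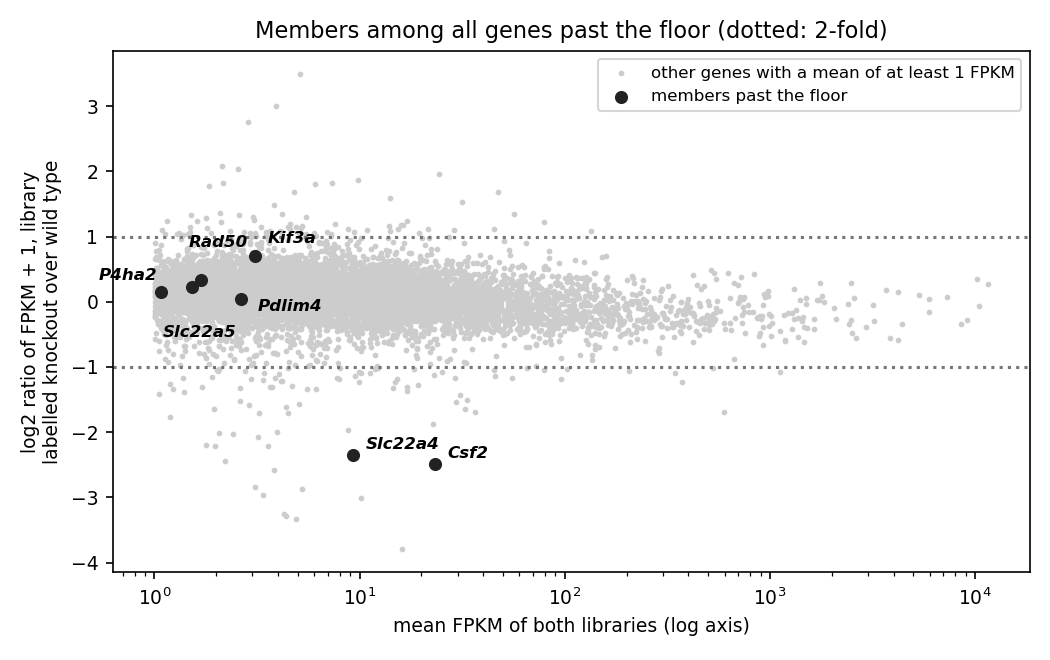
Log2 ratio of FPKM + 1, library labelled knockout over wild type, against the mean FPKM of both libraries (log axis) for the 9039 genes whose mean reached 1 FPKM; the 7 members past the floor are named. Csf2 (-2.48) and Slc22a4 (-2.35) lie below the 2-fold line at -1, and the other 5 lie between 0 and 1.

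Genes around the members were followed over 750 kb on each side of the Csf2 start, where the tables list 33 genes, 24 of them not members. Of those 24, 11 were listed at 0 in both libraries and 8 passed the floor. The pseudogene Gm12220 was the 1 counted as lower and 0 were higher; without it, 0 were lower. Irf1, the interferon regulatory factor gene between Rad50 and Slc22a5, had 119 FPKM in the library labelled knockout, against 109 FPKM in the wild-type library (FPKM + 1 scale, log2 ratio 0.12), and was the most abundant gene on that side. Beyond Acsl6, the meiotic gene Meikin was listed at 0 in both, and Fnip1, a folliculin partner gene, had 7.70 (KO) and 6.34 (WT) FPKM (0.25). Rapgef6, a Rap guanine nucleotide exchange factor gene, had 1.08 (KO) and 0.653 (WT) FPKM (0.33), a mean under the floor, and was 1.65-fold higher in the library labelled knockout without the added 1 FPKM.

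The next genes outward that passed the floor were within 1.5-fold on the FPKM + 1 scale. Sept8, a septin gene just beyond Kif3a, had 4.94 FPKM in the library labelled knockout, against 3.70 FPKM in the wild-type library (0.34). On the other side, Cdc42se2 had 30.8 (KO) and 22.3 (WT) FPKM (0.44), the glutathione peroxidase gene Gpx3 had 15.1 (KO) and 13.5 (WT) FPKM (0.15) and Tnip1, an inhibitor of NF-kappaB signalling, had 58.6 (KO) and 45.4 (WT) FPKM (0.36). Hint1, a nucleotide hydrolase gene, was the lower one, at 165 (KO) and 229 (WT) FPKM (-0.47). Lyrm7, under the floor and next to Hint1, had 0.101 (KO) and 0.396 (WT) FPKM, 3.93-fold lower in the library labelled knockout from some 9 and 37 fragments (log2 ratio of FPKM -1.98, counting interval -3.25 to -0.94). The 8 other genes past the floor had a median log2 ratio of 0.20, with 6 above 0 and 2 below, beside 63.2% above 0 over all genes. Among genes past the floor, the lower values in the stretch were those of Csf2, Slc22a4, the exon copy Gm12220 and, by less, Hint1. The longest Hint1 transcript has 636 bases, and with the trend in length and GC content removed Hint1 stood at -0.13.

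**Figure D4:**
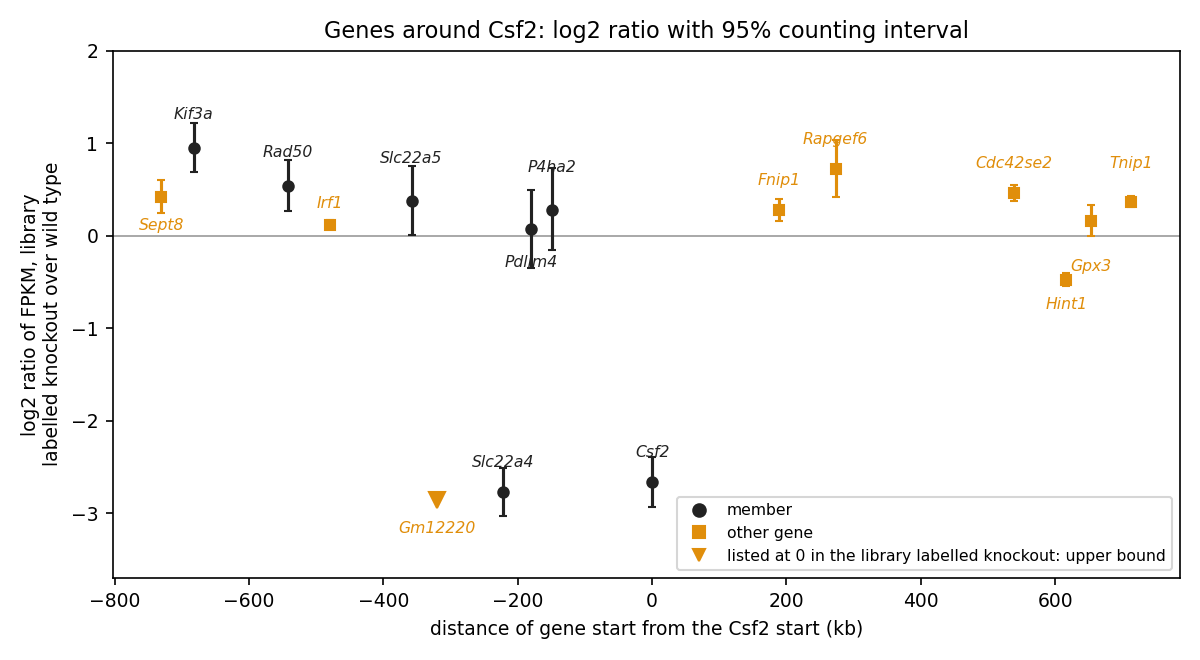
Log2 ratio of FPKM, library labelled knockout over wild type, with 95% counting intervals (bars), against the distance of each gene start from the Csf2 start in kb, for members with a usable level and other genes with at least 1 FPKM in either library. Slc22a4 and Gm12220 (an upper bound) and Csf2 lie below -2.5, and the genes between and around them lie between -0.5 and 1.

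The promoter classes gave different background shares. Among 1478 genes past the floor whose most CpG-rich window had a ratio under 0.6, as that of Csf2 does, 40 (2.71%) were 2-fold lower in the library labelled knockout and 20 (1.35%) higher. Among 5516 genes with a CpG-rich window, as for Slc22a4, 25 (0.453%) were 2-fold lower and 32 (0.58%) higher. Genes past the floor without a window ratio were in neither class. Csf2 and Slc22a4 thus fell in different classes, though the Csf2 window lies around a start 232 bases upstream of the GENCODE one. Rad50, past the floor, had no window. The members past the floor with CpG-rich windows other than Slc22a4 were not counted as lower. One of them, P4ha2, has its window around a start 829 bases downstream of the GENCODE one. Acsl6, which also has a CpG-rich window, was under the floor and could not be counted. A link between CpG content and level was not tested.

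Receptors for the products of Csf2 and Il3 were abundant in both libraries. The GM-CSF receptor alpha chain gene Csf2ra had 98.2 FPKM in the library labelled knockout, against 74.7 FPKM in the wild-type library (FPKM + 1 scale, log2 ratio 0.39; this ratio stands in brackets for the genes below). The interleukin-3 receptor alpha chain gene Il3ra had 32.6 (KO) and 20.5 (WT) FPKM (0.65). The beta chain genes Csf2rb (KO 59.4 and WT 48.3 FPKM, 0.29) and Csf2rb2 (KO 46.4 and WT 34.9 FPKM, 0.40) are close copies of each other, so their split is uncertain. Of 25 listed genes of these receptors and their signalling, 23 passed the floor, 17 above 0 and 6 below, beside 63.2% of all genes above 0. Il3ra was the 1 at least 1.5-fold higher and 0 were lower, beside 4.7% higher and 2.8% lower among all genes, so the count was near the background. The median was 0.23, and 0.14 after the length and GC trend was removed, beside 0.10 for all genes. Cish, a feedback inhibitor gene that STAT5 is known to induce, had 4.82 (KO) and 6.73 (WT) FPKM (-0.41), and Pik3r1, a regulatory subunit gene of PI3-kinase, had 4.28 (KO) and 2.87 (WT) FPKM (0.45).

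Genes that GM-CSF is known to raise in macrophages or dendritic cells lay lower in the library labelled knockout. Of 24 listed, 17 passed the floor, 13 below 0 and 4 above, beside 63.2% of all genes above 0. At 2-fold 2 were lower and 0 higher, beside 1.02% and 0.863% of all genes; at 1.5-fold 7 were lower and 1, Plet1, was higher, against 2.8% and 4.7% of all genes. Ccl17, a chemokine gene that attracts CCR4-bearing T cells, had 2.98 (KO) and 14.6 (WT) FPKM (-1.97), and Ccl6, another CC chemokine gene, had 223 (KO) and 525 (WT) FPKM (-1.23). The fatty acid binding protein gene Fabp4 had 48.4 (KO) and 96.4 (WT) FPKM (-0.98), and Ccl22, a second ligand gene of CCR4, had 14.6 (KO) and 29.2 (WT) FPKM (-0.95). The list median was -0.40, and -0.41 with the trend removed. Values of these libraries were known when the list was drawn up, and genes of the list also answer to signals other than GM-CSF.

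Factors known to act on Csf2 transcription or on its messenger RNA lay mostly above 0. Of 25 listed, 21 passed the floor, 18 above 0 and 3 below, beside 63.2% of all genes above 0, with a median of 0.31 (0.20 with the trend removed). Fosl1, an AP-1 subunit gene, had 8.17 FPKM in the library labelled knockout, against 2.73 FPKM in the wild-type library, and was the 1 gene of the list counted as higher, beside 0.863% of all genes. Zfp36l2, an RNA-binding protein gene of the family that destabilises AU-rich messages, had 17.3 (KO) and 9.62 (WT) FPKM (0.79). Nfkb1, the p105 and p50 subunit gene of NF-kappaB, had 26.6 (KO) and 18.1 (WT) FPKM (0.53), and Khsrp, another AU-rich element binding protein gene, had 8.61 (KO) and 5.99 (WT) FPKM (0.46). The 3 below 0 were Jun (-0.34), Cebpb (-0.22) and Zfp36 (-0.14). At 1.5-fold 2 were higher and 0 lower, beside 4.7% and 2.8% of all genes. The list joins transcription factors with RNA-binding proteins, so its median has no single reading for Csf2.

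**Figure D5:**
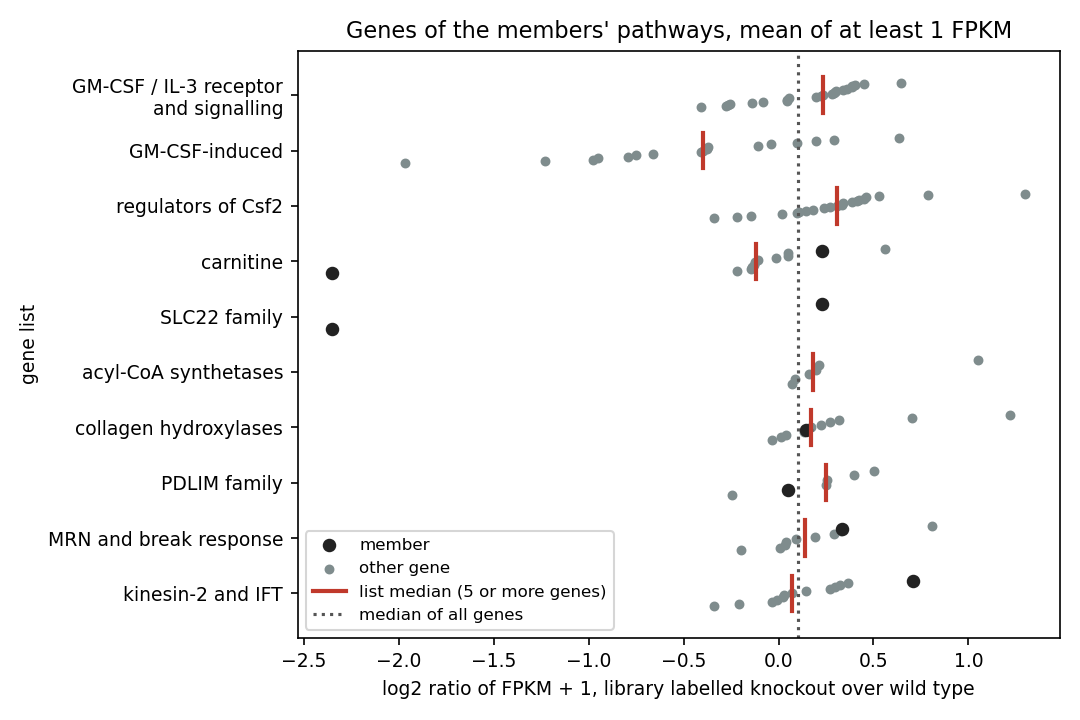
Log2 ratio of FPKM + 1, library labelled knockout over wild type (horizontal axis), for each gene whose mean reached 1 FPKM in 10 gene lists (rows); large points are members, bars are medians of lists with 5 or more genes and the dotted line is the median of all genes (0.10). The GM-CSF-induced list has its median at -0.40 and the list of Csf2 regulators at 0.31.

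Genes of the carnitine pathway around Slc22a5 lay on both sides of 0. Of 19 genes found, 12 passed the floor, 4 above 0 and 8 below, beside 63.2% of all genes above 0. The median was -0.12 (-0.03 with the trend removed). Slc22a4 and Slc22a5 are both on the list. Slc22a4 was the 1 past 1.5-fold, beside 2.8% lower and 4.7% higher among all genes. Cpt1a, the carnitine palmitoyltransferase gene at the outer mitochondrial membrane, had 15.6 (KO) and 10.2 (WT) FPKM (0.56), and the carnitine acetyltransferase gene Crat had 1.98 (KO) and 2.47 (WT) FPKM (-0.22). Of 18 SLC22 family genes, Slc22a4 and Slc22a5 were the 2 past the floor, and 9 were listed at 0 in both libraries. Among long-chain acyl-CoA synthetase genes, the class of Acsl6, 6 of 8 passed the floor and all 6 were above 0, beside 63.2% of all genes. Acsl1 had 8.46 (KO) and 3.57 (WT) FPKM (1.05) and was the 1 counted as higher, beside 0.863% of all genes, while Acsl4 had 24.8 (KO) and 21.2 (WT) FPKM (0.22), and the fatty acid transport protein genes Slc27a1 and Slc27a4 stood at 0.20 and 0.16.

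P4ha2 and its partners in collagen modification lay mostly a little above 0. Of 14 listed, P4ha2 among them, 11 passed the floor, 10 above 0 and 1 below, beside 63.2% of all genes above 0. The median, with P4ha2 in it, was 0.17 (0.14 with the trend removed). Serpinh1, the collagen chaperone gene HSP47, had 111 (KO) and 47.2 (WT) FPKM (1.22) and was the 1 counted as higher, beside 0.863% of all genes. P3h4 had 13.0 (KO) and 7.61 (WT) FPKM (0.70), Plod3, a lysyl hydroxylase gene, had 19.9 (KO) and 15.7 (WT) FPKM (0.32), and P3h1, a prolyl 3-hydroxylase gene, had 1.52 (KO) and 1.09 (WT) FPKM (0.27). P4ha1, the other main catalytic subunit gene, had 18.6 (KO) and 16.4 (WT) FPKM (0.17). Of 8 fibroblast markers, 7 passed the floor, 6 above 0 and 1 below, beside 63.2% of all genes above 0. Of the 8, 0 were listed at 0 in both libraries. The 3 counted as higher, beside 0.863% of all genes, were themselves the collagen genes Col1a1 (KO 15.98 and WT 3.63 FPKM, 1.87), Col1a2 (KO 24.2 and WT 9.67 FPKM, 1.24) and Col3a1 (KO 22.9 and WT 9.54 FPKM, 1.18). The proteoglycan gene Dcn, which made up most of the summed 338 (KO) and 293 (WT) FPKM, had 251 (KO) and 248 (WT) FPKM (0.02), and Lum had 9.46 (KO) and 12.4 (WT) FPKM (-0.35). The growth factor receptor genes Pdgfra (0.58) and Pdgfrb (0.49) were higher in the library labelled knockout, though by less than 2-fold. Dpt, under the floor, was also higher there (0.58). Among the markers that are not collagen genes, Pdgfra, Pdgfrb and Dpt were thus higher, Dcn was level and Lum was lower. The part of fibroblast RNA in the values of the P4ha2 partners was not tested.

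The lists of partner genes of Kif3a, Rad50 and Pdlim4, each with the member itself in it, had medians between 0.07 and 0.25. The median of all genes was 0.10. The second kinesin-2 motor gene Kif3b had 7.80 FPKM in the library labelled knockout, against 6.29 FPKM in the wild-type library (0.27), Kif3c had 1.67 (KO) and 1.07 (WT) FPKM (0.37), and the cargo adaptor gene Kifap3 had 3.49 (KO) and 2.59 (WT) FPKM (0.32). The intraflagellar transport gene Ift27 had 11.3 (KO) and 14.6 (WT) FPKM (-0.34). Kif3a, itself a member, was the 1 of 13 genes of this list past the floor to reach 1.5-fold. Over all genes, 4.7% were at least 1.5-fold higher and 2.8% lower. The list median was 0.07 (0.17 with the trend removed). Of the other MRN subunits, Mre11a stood at 2.64 (KO) and 2.61 (WT) FPKM (0.01) and Nbn at 12.03 (KO) and 11.2 (WT) FPKM (0.09). Among the 10 double-strand break genes past the floor (median 0.14, or 0.11 with the trend removed), the histone gene H2afx had 12.9 (KO) and 6.91 (WT) FPKM (0.81), Mdc1 2.14 (KO) and 1.51 (WT) FPKM (0.33) and Rbbp8 21.9 (KO) and 17.7 (WT) FPKM (0.29). The 6 genes of the PDLIM list had a median of 0.25 (0.20 with the trend removed), with Pdlim7 at 4.20 (KO) and 2.66 (WT) FPKM (0.50), Actn1 at 78.2 (KO) and 59.0 (WT) FPKM (0.40), Pdlim5 at 9.40 (KO) and 7.73 (WT) FPKM (0.25) and Actn4 at 45.6 (KO) and 38.3 (WT) FPKM (0.25).

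Markers of other cells that can make GM-CSF or respond to it were set beside Csf2. Summed over 12 T and NK cell markers, the level was 2.93 FPKM in the library labelled knockout, against 7.22 FPKM in the wild-type library, most of it from Lck (KO 2.63 and WT 6.36 FPKM). Of the defining genes, Cd3d, Cd3e and Cd3g had 0 FPKM in each library, and Trac stood at 0 (KO) and 0.317 (WT) FPKM. The 8 B cell markers summed to 8.44 (KO) and 32.6 (WT) FPKM, with Igkc at 1.47 (KO) and 18.9 (WT) FPKM and Cd79a at 0.205 (KO) and 1.01 (WT) FPKM. Cd22, which made up most of the sum in the library labelled knockout, was level at 5.57 (KO) and 5.32 (WT) FPKM (0.06). The 11 mast cell and basophil markers summed to 5.41 (KO) and 6.88 (WT) FPKM, nearly all from Hdc, the histidine decarboxylase gene, at 4.67 (KO) and 5.94 (WT) FPKM. Mcpt4, Mcpt8 and Fcer1a were at 0 in both. Gata2 (KO 0.228 and WT 0.125 FPKM) and Kit (KO 0.0461 and WT 0.0311 FPKM) were not lower in the library labelled knockout. Nor were Cpa3 (KO 0.123 and WT 0.121 FPKM) and Ms4a2 (KO 0.025 and WT 0 FPKM). Cma1 (KO 0 and WT 0.239 FPKM), Tpsb2 (KO 0.242 and WT 0.305 FPKM) and Tpsab1 (KO 0.0726 and WT 0.119 FPKM) were lower there. Each rested on few fragments, and the counting intervals of Tpsb2 and Tpsab1 held 0. The 6 eosinophil markers summed to 0.732 (KO) and 2.18 (WT) FPKM, with Epx and Ear6 at 0 in both. The 8 dendritic cell markers summed to 1.49 (KO) and 2.12 (WT) FPKM with 3 at 0 in both, the 9 neutrophil markers to 15.3 (KO) and 14.6 (WT) FPKM with 3 at 0 in both, and the 8 mesothelial markers to 107 (KO) and 106 (WT) FPKM. The B cell, T and NK cell, eosinophil, mast cell and dendritic cell sums were lower along with Csf2 in the library labelled knockout. For T and NK cells and for mast cells this came mainly through 1 gene each, Lck and Hdc. The eosinophil sum was lower mainly through Siglecf (KO 0.533 and WT 1.58 FPKM). The dendritic cell sum was lower mainly through Batf3 (KO 0.432 and WT 1.21 FPKM). Zbtb46 (KO 0.575 and WT 0.441 FPKM), Cd209a and Flt3 were higher, though the counting interval of each held 0. Siglecf and Batf3 are also on the list of GM-CSF-induced genes. The part of these cell types in the level of Csf2 was not tested.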

How the data were processed

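The authors deposited 1 FPKM value per Ensembl gene and library, per the file headers. Tools listed without a role are StringTie 1.3.0, HISAT2 2.0.4 and edgeR, with builds mm10 and GRCm38.p4, per the submitters' processing notes. The annotation and filters were not given in the sources used here. Libraries were poly-A selected and randomly primed, with no strand marking described in the labels' protocols, so overlapping antisense genes cannot be told apart. Symbols, coordinates and lengths came from GENCODE M21 (GRCm38; 34267 IDs matched and 478 not; the values of 17 symbols with several IDs were summed). FPKM times length of single-transcript genes fell on multiples of 1 step (within 0.02 of a fragment for 92.5% of 1503 low genes in the library labelled knockout and 92.2% of 1442 in the wild-type library), which gave the fragments per gene, with the longest transcript as length. Genes were compared by log2 of FPKM + 1, with a floor of a mean of 1 FPKM and a fold of 2. Named genes were the 9 members, Kdm2b, neighbours reaching 1 FPKM, and up to 4 genes per pathway list by size of ratio; partner subunits, markers and silent neighbours were named for their role, and any gene singled out in a count was chosen after its value was seen. The members and lists were chosen with earlier results of these data known. The fold calculation was tested on simulated data. Sequence features used Biopython 1.88 and Python 3.11.15.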

Additional observations from a re-analysis of the deposited data

How the results depend on the processing

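Csf2 and Slc22a4 were counted as lower in each of the settings tried with a 2-fold limit, with log2 ratios from -2.64 to -1.99 for Csf2 and from -2.72 to -1.52 for Slc22a4. A pseudocount of 5 gave -1.99 for Csf2, -1.52 for Slc22a4 and 0.35 for Kif3a; a pseudocount of 0.1 gave -2.72 for Slc22a4, and removing the length and GC trend -2.07 for Csf2. The other shifts of the 8 members with a level stayed within the counting interval's half-width, including sign changes of Pdlim4 (-0.04 under median scaling) and Acsl6 (-0.10 with the trend removed). Over all genes, the 78 higher and 92 lower became 174 higher with a pseudocount of 0.1, 14 and 33 with one of 5, 44 higher with the median scaled to 0, 35 and 48 at a floor of 5 FPKM, 425 and 253 at 1.5-fold and 5 and 18 at 4-fold. At 1.5-fold 1 member (Kif3a) was higher. Of the other neighbours, 0 were lower at a floor of 5 FPKM or without Gm12220, both by construction; windows of 500 kb and 1 Mb gave the same counts. Adding Gm12220, leaving it out and the exon-union length were chosen after seeing the data. The mean transcript length moved the lower end of the interval of Slc22a5 below 0. No paired analysis was possible because each group had 1 library. Depth limits Il3, Acsl6 and Slc22a21.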
